A study of Homo sapiens with 32 samples.

Results

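The transcripts described here encode 10 subunits of the corepressor complexes that carry class I histone deacetylases. They are MTA1, MTA2, MTA3, CHD4, RBBP4 and RBBP7 of the NuRD complex, KDM1A and RCOR1 of CoREST, SIN3A of Sin3, and GPS2 of NCoR. They were picked by gene symbol, with older symbols counted, and each was read by 1 probe, so they make up 10 of the 24526 probes of the array. KDM1A stood under its older symbol AOF2. Of the 10, 9 passed the filter on dim probes (a detection p under 0.05 on at least 4 arrays) and were tested among 12973 genes, while RCOR1 did not pass.

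Messenger RNA of 2 human liver tumour lines was read on 32 one-colour bead arrays, 4 in each of 8 groups. Huh7 derives from a hepatocellular carcinoma, and HepG2 is labelled as hepatoblastoma. One subset holds cells of each line with SAHA (vorinostat, an inhibitor of zinc-dependent histone deacetylases) and cells with DMSO as its control. The other subset holds cells of each line with an siRNA against HDAC2 and cells with a scrambled siRNA. No group received both agents. The dose of SAHA, the time of treatment and the siRNA sequences do not appear in the labels. Nor is it stated that the 4 arrays of each group are separate cultures, so the p-values speak only of the spread among arrays.

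Class I deacetylases act on chromatin mostly inside multi-subunit complexes, which bring the enzyme to repressed genes and raise its activity. In NuRD an MTA protein is the scaffold that binds the deacetylase, RBBP4 and RBBP7 are WD-repeat proteins that hold histones, and CHD4 is the ATPase that moves nucleosomes. In CoREST the RCOR proteins link the deacetylase to KDM1A, a histone lysine demethylase. SIN3A is the scaffold of Sin3, which also holds RBBP4 and RBBP7. The NCoR complex works with HDAC3, and GPS2 is one of its small core subunits.

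The promoter sequences of 4 subunits are shown because their transcripts moved the same way with SAHA in both lines: MTA1, MTA3 and KDM1A were lower and GPS2 was higher. Each is a RefSeq window on GRCh38.p14 of 300 bases, from 250 before to 50 after an annotated start, written 5′ to 3′ on the strand of the gene. The MTA1 window is chr14:105419577-105419876 (plus strand), that of MTA3 chr2:42493860-42494159 (plus), that of KDM1A chr1:23019218-23019517 (plus), and that of GPS2 chr17:7315311-7315610 (minus). Capitals mark matches on either strand of GGGCGG (the core of the Sp1 site), CCAAT or CCGGAAG (an ETS site), and matches of one motif may overlap another.
MTA1: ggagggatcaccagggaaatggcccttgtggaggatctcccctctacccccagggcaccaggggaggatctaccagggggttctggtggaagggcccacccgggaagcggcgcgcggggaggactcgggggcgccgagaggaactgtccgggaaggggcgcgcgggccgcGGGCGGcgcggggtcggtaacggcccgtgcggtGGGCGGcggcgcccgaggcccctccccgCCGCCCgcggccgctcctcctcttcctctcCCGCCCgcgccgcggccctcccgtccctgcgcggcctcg
MTA3: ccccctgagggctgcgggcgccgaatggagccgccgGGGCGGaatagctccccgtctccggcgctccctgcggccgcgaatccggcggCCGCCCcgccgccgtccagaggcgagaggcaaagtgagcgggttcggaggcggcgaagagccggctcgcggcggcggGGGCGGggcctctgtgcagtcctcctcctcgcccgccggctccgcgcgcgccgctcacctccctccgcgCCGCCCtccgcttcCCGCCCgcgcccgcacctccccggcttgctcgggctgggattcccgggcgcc
KDM1A: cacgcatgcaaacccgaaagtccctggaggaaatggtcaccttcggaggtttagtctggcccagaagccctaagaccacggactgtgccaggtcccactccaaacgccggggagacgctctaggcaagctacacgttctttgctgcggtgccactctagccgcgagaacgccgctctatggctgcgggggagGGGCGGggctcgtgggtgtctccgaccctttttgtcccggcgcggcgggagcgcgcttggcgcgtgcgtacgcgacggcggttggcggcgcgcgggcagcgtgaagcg
GPS2: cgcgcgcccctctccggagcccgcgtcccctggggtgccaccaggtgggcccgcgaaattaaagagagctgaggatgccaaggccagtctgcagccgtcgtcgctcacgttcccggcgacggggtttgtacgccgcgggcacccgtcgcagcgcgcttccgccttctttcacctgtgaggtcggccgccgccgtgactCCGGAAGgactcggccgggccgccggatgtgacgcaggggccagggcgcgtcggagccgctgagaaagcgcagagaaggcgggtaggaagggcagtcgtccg
The MTA1 window held 4 matches to GGGCGG, that of MTA3 held 5 and that of KDM1A held 1, and none of the 3 held CCAAT or CCGGAAG. The GPS2 window held no GGGCGG and 1 CCGGAAG. Over all 10 subunits RefSeq gave 15 windows, of which 13 held GGGCGG, 7 CCAAT and 4 CCGGAAG, against 45.0%, 34.6% and 10.3% of all 35116 windows. A further MTA3 window (chr2:42567795-42568094), not shown, held none of these motifs. The windows of RBBP4 (chr1:32650958-32651257 and chr1:32651106-32651405) overlapped, so they are not independent counts. Those 15 windows had a GC content of 58.0% to 79.7%, and the median of all windows was 58.7%. A match is a run of letters in this window and says nothing of binding.

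Signal levels are on the log2 scale after background correction and quantile normalization, and a change is a difference of group means on that scale, tested with limma and adjusted by Benjamini-Hochberg over the 12973 genes. Genes whose adjusted p fell under 0.05 are spoken of as called. Each array detected 48.3% to 54.9% of its probes, and within groups the correlation between arrays was 0.980 to 0.996. Of 10 hepatocyte markers 8 were detected on all 32 arrays, and HNF4A and FGB on 29 and 30. None of 5 leukocyte markers and none of 6 fibroblast and endothelial markers was detected on all arrays, and the leukocyte marker PTPRC was detected on 1. The summed signal of the leukocyte markers moved with SAHA, from 482 to 525 over the HepG2 DMSO arrays to 5068 to 5297 with SAHA, and in Huh7 from 3658 to 4145 down to 731 to 1047. That of the fibroblast and endothelial markers went from 276 to 314 up to 525 to 594 with SAHA in Huh7, and from 201 to 227 up to 298 to 332 in HepG2. The summed hepatocyte markers went from 101017 to 106033 down to 53634 to 56523 with SAHA in Huh7, and from 188015 to 201652 down to 176643 to 183565 in HepG2. The leukocyte sum in Huh7 was 392 to 571 with scrambled siRNA and 233 to 292 with HDAC2 siRNA. In HepG2 it was 398 to 478 and 373 to 381. The hepatocyte sum in Huh7 was 74343 to 83514 with scrambled siRNA and 64154 to 75330 with HDAC2 siRNA. In HepG2 it was 150289 to 156512 and 134770 to 155938. The part of these shifts in the changes given below was not tested. Fewer cells with a transcript and less transcript per cell cannot be told apart in such RNA.

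HDAC2, the target of the siRNA, was read at 12.10, 12.06, 12.02 and 12.00 with scrambled siRNA in Huh7, and at 8.82, 8.62, 8.62 and 8.73 with HDAC2 siRNA. In HepG2 the scrambled arrays read 10.89, 11.12, 10.79 and 10.97 and the HDAC2 siRNA arrays 7.87, 7.77, 8.22 and 7.72. The groups were far apart in both lines, with 9.82% of the control level left in Huh7 and 12.1% in HepG2 (limma adjusted p = 3.52e-21 and 2.15e-19). With SAHA the HDAC2 transcript rose by 0.45 in Huh7 (limma adjusted p = 0.000338) and changed by -0.16 in HepG2 without passing (0.207). Both SAHA values depended on the scaling: where arrays were brought to a common median in place of quantile normalization, called median scaling below, HDAC2 changed by 0.13 in Huh7 (adjusted p = 0.461) and by -0.48 in HepG2 (adjusted p = 0.00387).

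SAHA lowered MTA1, MTA3 and KDM1A and raised GPS2, SIN3A and RBBP7 in Huh7. These 6 of the 9 subunits tested were called, at a rate of 60.7% among all genes, with 3 higher (31.6% of all genes) and 3 lower (29.1%). All 6 had SAHA arrays that did not overlap the DMSO arrays (55% of all genes). The median change of the subunits was -0.29, against 0.01 over all genes. Under median scaling, 2 subunits were higher (23.2% of all genes) and 5 lower (36.1%). Of all genes called there, 39.1% were higher in place of 52.0%.

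In HepG2 SAHA lowered RBBP4, KDM1A, MTA3, MTA1, CHD4 and RBBP7 and raised GPS2. These 7 of 9 were called, where 54.5% of all genes were, with 1 higher (26.9% of all genes) and 6 lower (27.6%). The share of subunits that were lower stood above that of all genes, a difference with no test. MTA1, MTA3 and KDM1A were thus lower in both lines, as were 14.9% of all genes, and GPS2 was higher in both, as were 14.9%. In 6 of the 7 the arrays of the groups did not overlap (52.3% of all genes), and RBBP7 was the exception. The median change was -0.38, against -0.01 over all genes. Under median scaling all 9 were called, 1 higher (18% of all genes) and 8 lower (37.7%), while 32.3% of all genes called were higher in place of 49.4%. That scaling moved the median of all genes to -0.13 in Huh7 and -0.17 in HepG2.

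HDAC2 siRNA changed fewer of the subunits than SAHA did, and also fewer of all genes. In Huh7 it raised KDM1A, GPS2 and MTA3 and lowered MTA2, 4 of 9 called against 45.3% of all genes, with 3 higher (22.9%) and 1 lower (22.4%). Arrays did not overlap for 4 subunits (46% of all genes), namely KDM1A, GPS2, MTA3 and CHD4, whose change of 0.17 was not called. In HepG2 it raised MTA3 and lowered MTA2 and RBBP7, 3 of 9 called against 36.6% of all genes, with 1 higher (18.8%) and 2 lower (17.9%). Arrays of MTA2 and MTA3 alone did not overlap (26.5% of all genes). The median change of the subunits was 0.17 in Huh7 and -0.09 in HepG2, against -0.01 and 0.01 over all genes. All 4 HDAC2 siRNA arrays of HepG2 had low estimated quality weights (0.40 to 0.50), and with only the arrays compared in the fit 22.9% of all genes were called there.

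**Figure D1:**
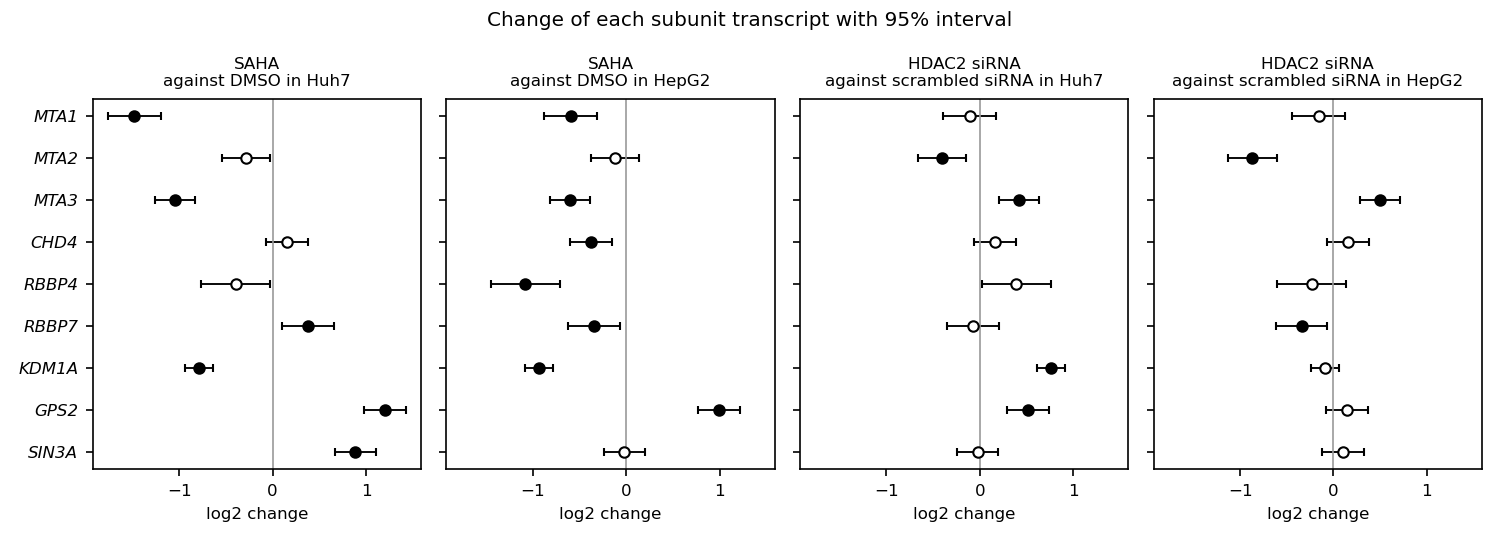
Change in log2 signal of the 9 subunit transcripts tested, in 4 panels, one for each treatment comparison, with the 95% interval of the limma model as bars. Filled points passed an adjusted p under 0.05 and open points did not. GPS2 lies right of 0 in all 4 panels and is called in 3 of them, and MTA3 lies left of 0 with SAHA and right of 0 with HDAC2 siRNA, called in each.

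MTA1 (chr14:105419827-105470729) encodes an MTA scaffold of NuRD. In Huh7 the DMSO arrays read 9.09, 8.61, 8.92 and 9.29, and the SAHA arrays 7.48, 7.06, 7.73 and 7.71. Every SAHA array lay well below the lowest DMSO array, and the level fell by 1.48 (SE 0.14, limma adjusted p = 9.05e-11), or 2.79-fold, to 35.8% of the control. In HepG2 the DMSO arrays read 9.85, 10.14, 10.27 and 10.07 and the SAHA arrays 9.50, 9.40, 9.36 and 9.69. These groups did not overlap either, and the level fell by 0.59 (SE 0.14, adjusted p = 0.000533), or by 0.99 under median scaling. HDAC2 siRNA left changes of -0.11 in Huh7 (95% interval -0.39 to 0.18, adjusted p = 0.586) and -0.16 in HepG2 (-0.44 to 0.13, adjusted p = 0.412). The level was highest with DMSO in HepG2 (10.08 ± 0.17, SD, n = 4) and lowest with SAHA in Huh7 (7.49 ± 0.31). The 6 groups between them, from 9.49 down to 8.82, each overlapped their neighbours in this order.

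MTA2 (chr11:62593214-62601865), the scaffold of another form of NuRD, was the subunit that HDAC2 siRNA lowered in both lines. In HepG2 the scrambled arrays read 9.04, 8.75, 8.59 and 8.70 and the HDAC2 siRNA arrays 7.95, 7.84, 8.23 and 7.59. No array overlapped, and the level fell by 0.87 (SE 0.13, limma adjusted p = 2.54e-06), to 54.8% of the control. In Huh7 the scrambled arrays read 9.35, 8.99, 9.23 and 9.18 and the HDAC2 siRNA arrays 8.78, 8.69, 9.02 and 8.66. The highest HDAC2 siRNA array reached above the lowest scrambled array, and the level fell by 0.40 (SE 0.13, adjusted p = 0.00956). SAHA gave -0.29 in Huh7 (95% interval -0.55 to -0.03, adjusted p = 0.0512, and 0.0246 without Huh7 DMSO replicate 4 or 0.0207 without Huh7 SAHA replicate 3) and -0.12 in HepG2 (-0.38 to 0.14, adjusted p = 0.439), neither called. Under median scaling these were -0.67 and -0.53 and both passed (adjusted p = 0.00038 and 0.00425). Down the order of levels from Huh7 with DMSO (9.66 ± 0.21, SD, n = 4) each group overlapped the next, except that HepG2 with HDAC2 siRNA (7.90 ± 0.26) lay apart at the bottom.

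MTA3 (chr2:42494110-42756946), the third MTA scaffold, was called in all 4 comparisons, lower with SAHA and higher with HDAC2 siRNA. In Huh7 the DMSO arrays read 8.36, 8.33, 8.08 and 8.15 and the SAHA arrays 7.20, 7.12, 7.51 and 6.89, a fall of 1.05 (SE 0.10, limma adjusted p = 3.26e-10). In HepG2 the DMSO arrays read 10.30, 10.21, 10.14 and 10.26 and the SAHA arrays 9.58, 9.65, 9.51 and 9.78, a fall of 0.60 (SE 0.10, adjusted p = 1.16e-05). All SAHA arrays lay below all DMSO arrays of their line. Without background correction the Huh7 fall was 0.68, and under median scaling the HepG2 fall was 1.01. With the siRNA the Huh7 arrays went from 7.70, 7.47, 7.61 and 7.62 to 8.00, 7.90, 8.19 and 7.99, a rise of 0.42 (SE 0.10, adjusted p = 0.00125), or 0.28 without background correction. In HepG2 they went from 9.90, 9.83, 10.10 and 9.98 to 10.31, 10.44, 10.56 and 10.50, a rise of 0.50 (SE 0.10, adjusted p = 0.000303). Again no array overlapped in either line. In the order of levels the 4 HepG2 groups, from 10.45 ± 0.11 with HDAC2 siRNA to 9.63 ± 0.11 with SAHA (SD, n = 4), stood apart from each other, and the lowest of them lay 1.40 above the highest Huh7 group. Of all 12973 genes, 1409 (10.9%) were called in all 4 comparisons in any direction, and MTA3 was the 1 subunit among them.

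CHD4 (chr12:6570082-6607379), the nucleosome-moving ATPase, varied least of the subunits tested, with 0.80 between its highest and lowest group means. It passed only with SAHA in HepG2, where the DMSO arrays read 10.44, 10.54, 10.43 and 10.46 and the SAHA arrays 10.11, 10.09, 9.95 and 10.20. These groups did not overlap, and the level fell by 0.38 (SE 0.11, limma adjusted p = 0.004), or by 0.79 under median scaling. In Huh7 the change with SAHA was 0.15 (95% interval -0.07 to 0.38, adjusted p = 0.238). HDAC2 siRNA gave 0.17 in Huh7 (adjusted p = 0.233) and 0.16 in HepG2 (adjusted p = 0.284). In HepG2 the HDAC2 siRNA arrays spread from 10.20 to 10.82 around scrambled arrays of 10.33 to 10.37.

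RBBP4 (chr1:32651208-32686211) encodes a histone-binding WD-repeat protein, and its probe was dim. It was detected on 29 of 32 arrays, missing 1 SAHA array of Huh7 and 2 SAHA arrays of HepG2, and the lowest detected signal of an array was 5.21 to 5.54. In HepG2 arrays with DMSO read 6.67, 6.47, 6.19 and 6.55 and the SAHA arrays 5.31, 5.26, 5.59 and 5.39. The groups did not overlap, and the level fell by 1.08 (SE 0.18, limma adjusted p = 5.8e-06), a value that was 0.40 without background correction. In Huh7 SAHA gave -0.40 (95% interval -0.76 to -0.03, adjusted p = 0.0586) with overlapping arrays, and it passed without Huh7 DMSO replicate 2 or 4 or Huh7 SAHA replicate 3 (0.0334 to 0.0498). HDAC2 siRNA gave 0.39 in Huh7 (0.02 to 0.76, adjusted p = 0.0791, and 0.022 without its replicate 1 or 0.0405 without scrambled replicate 1) and -0.23 in HepG2 (-0.60 to 0.13, adjusted p = 0.336). Ordered by level, the 8 groups ran from 6.95 ± 0.27 (SD, n = 4) to 5.39 ± 0.15 and each overlapped the next.

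RBBP7 (chrX:16844341-16870362) encodes the close relative of RBBP4, and its calls were weak. In Huh7 the DMSO arrays read 9.72, 9.99, 9.95 and 9.85 and the SAHA arrays 10.37, 10.23, 10.02 and 10.39. The groups did not overlap, and the level rose by 0.38 (SE 0.13, limma adjusted p = 0.0156), but under median scaling the change was -0.012 (adjusted p = 0.954). The call was also lost without Huh7 DMSO replicate 1 (adjusted p = 0.0554) or Huh7 SAHA replicate 4 (adjusted p = 0.051). HepG2 DMSO arrays read 10.08, 10.02, 9.69 and 9.86 and the SAHA arrays 9.65, 9.37, 9.79 and 9.47, which overlapped, and the level fell by 0.34 (SE 0.13, adjusted p = 0.0308), or by 0.75 under median scaling. That call was lost without HepG2 DMSO replicate 1 or 2 or HepG2 SAHA replicate 2 or 4 (adjusted p = 0.0791 to 0.111). HDAC2 siRNA in HepG2 gave arrays of 9.68, 9.45, 8.99 and 8.81 against scrambled arrays of 9.58, 9.73, 9.49 and 9.49, and the level fell by 0.34 (SE 0.13, adjusted p = 0.0466). Replicates 2, 3 and 4 of that group lay below the scrambled range and replicate 1 lay within it. The call was lost in 7 of 11 settings, without HDAC2 siRNA replicate 3 or 4, and without any 1 of the 4 scrambled arrays, with the smallest change at -0.20 (adjusted p = 0.255) without HDAC2 siRNA replicate 4. In Huh7 it gave -0.07 (adjusted p = 0.72), and there the scrambled (10.75 ± 0.06, SD, n = 4) and HDAC2 siRNA (10.68 ± 0.07) groups overlapped each other and lay above the other 6 groups.

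**Figure D2:**
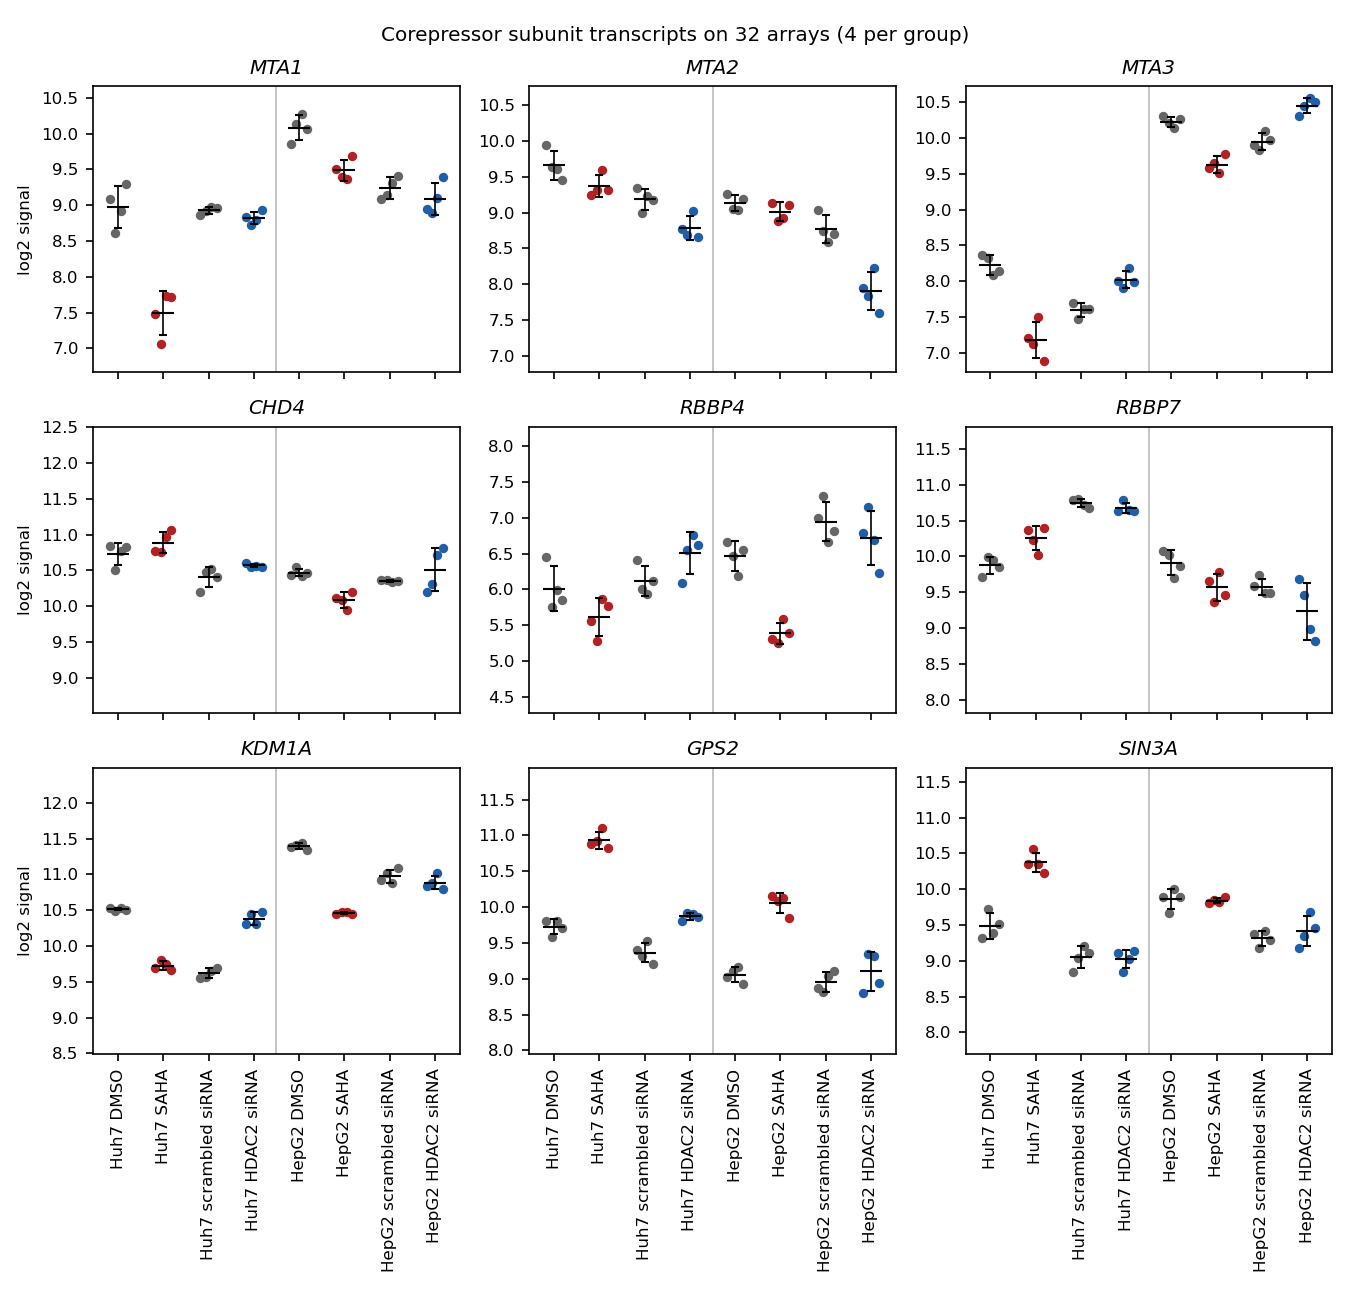
Log2 signal of 9 subunit transcripts on each of the 32 arrays, in 8 groups of 4, with Huh7 left and HepG2 right of the grey line. Points are arrays (grey for DMSO and scrambled siRNA, red for SAHA, blue for HDAC2 siRNA), bars show the mean and SD, and every panel spans the same number of log2 units. MTA3 separates the lines in all groups, KDM1A with SAHA lies below DMSO in both lines, and GPS2 is highest with SAHA in Huh7.

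KDM1A (chr1:23019468-23083689), the demethylase of CoREST, had SDs of 0.02 to 0.10 in all 8 groups. In Huh7 the DMSO arrays read 10.53, 10.49, 10.53 and 10.51 and the SAHA arrays 9.69, 9.80, 9.75 and 9.67, a fall of 0.79 (SE 0.07, limma adjusted p = 6.56e-11). HepG2 DMSO arrays read 11.39, 11.42, 11.43 and 11.34 and the SAHA arrays 10.44, 10.48, 10.47 and 10.45, a fall of 0.93 (SE 0.07, adjusted p = 1.9e-12). SAHA arrays lay below DMSO arrays without overlap in both lines, and under median scaling the Huh7 fall was 1.21. With HDAC2 siRNA in Huh7 the arrays read 10.31, 10.44, 10.31 and 10.48 against scrambled arrays of 9.56, 9.56, 9.65 and 9.70, a rise of 0.76 (SE 0.07, adjusted p = 3.68e-10). The scrambled group of Huh7 had the lowest mean of all 8 groups (9.62 ± 0.07, SD, n = 4), overlapping only the SAHA group of Huh7, and its arrays lay below every DMSO array of Huh7. HepG2 with DMSO stood apart at the top (11.39 ± 0.04). In HepG2 HDAC2 siRNA gave -0.09 (95% interval -0.24 to 0.06, adjusted p = 0.37).

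RCOR1 (chr14:102592649-102730561), which links KDM1A to the deacetylase, was not detected on any of the 32 arrays. Its log2 signal lay between 4.54 and 5.26, under or at the lowest detected signals, so no change is given. Whether the transcript was present cannot be read from this 1 probe.

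SIN3A (chr15:75369379-75455815), the Sin3 scaffold, rose with SAHA in Huh7. Its DMSO arrays there read 9.32, 9.72, 9.38 and 9.52 and the SAHA arrays 10.35, 10.56, 10.36 and 10.23, which did not overlap. The rise was 0.89 (SE 0.11, limma adjusted p = 2.02e-08), or 1.85-fold, and 0.51 under median scaling. In HepG2 the DMSO arrays of 9.90, 9.67, 10.00 and 9.89 enclosed the SAHA arrays of 9.81, 9.85, 9.83 and 9.89. The change there was -0.02 (95% interval -0.24 to 0.20, adjusted p = 0.888), and -0.41 under median scaling (adjusted p = 0.0145). HDAC2 siRNA gave -0.02 in Huh7 (-0.24 to 0.20, adjusted p = 0.9) and 0.10 in HepG2 (-0.12 to 0.32, adjusted p = 0.5). The 4 siRNA and scrambled groups, at 9.03 to 9.42, were the lowest of the 8.

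GPS2 (chr17:7312661-7315360), the small NCoR subunit, rose with SAHA in both lines. In Huh7 the DMSO arrays read 9.80, 9.58, 9.81 and 9.71 and the SAHA arrays 10.89, 10.92, 11.10 and 10.82, a rise of 1.21 (SE 0.11, limma adjusted p = 4.85e-11), or 2.31-fold. In HepG2 the DMSO arrays read 9.03, 9.10, 9.17 and 8.92 and the SAHA arrays 10.15, 10.08, 10.13 and 9.85, a rise of 1.00 (SE 0.11, adjusted p = 3.49e-09), or 0.58 under median scaling. No array overlapped in either line. HDAC2 siRNA in Huh7 gave 9.81, 9.91, 9.91 and 9.86 against scrambled arrays of 9.40, 9.31, 9.53 and 9.21, again without overlap, a rise of 0.51 (SE 0.11, adjusted p = 0.000265). In HepG2 its change was 0.14 (95% interval -0.08 to 0.37, adjusted p = 0.335). The HDAC2 siRNA arrays there spread from 8.80 to 9.35 around scrambled arrays of 8.82 to 9.11, with 2 of the 4 above that range. The SAHA group of Huh7 (10.93 ± 0.12, SD, n = 4) stood apart at the top, 0.88 above the SAHA group of HepG2 (10.05 ± 0.14).

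Whether the lines responded differently was tested by the HepG2 effect minus the Huh7 effect in the same model. For SAHA 6 of 9 subunits differed, where 52.2% of all genes did. SIN3A differed by -0.91 (SE 0.15, limma adjusted p = 9.37e-06), having risen in Huh7 and changed by -0.02 in HepG2. MTA1 differed by 0.89 (SE 0.20, adjusted p = 0.000333), having fallen further in Huh7, or by 0.54 without background correction. RBBP7 rose in Huh7 and fell in HepG2 (difference -0.72, SE 0.19, adjusted p = 0.00194), and the effect on CHD4 was lower in HepG2 by -0.53 (adjusted p = 0.0047). MTA3 fell further in Huh7 (difference 0.45, SE 0.15, adjusted p = 0.0115), a call lost under median scaling (0.27, adjusted p = 0.257) and without background correction (0.14, adjusted p = 0.283). RBBP4 gave -0.69 (adjusted p = 0.0244), but its SAHA levels lay near background, with 2 of 4 arrays detected in HepG2 and 3 of 4 in Huh7, so the size of that difference is not settled. Its call was lost without background correction (-0.26, adjusted p = 0.0614) and without HepG2 DMSO replicate 1, Huh7 DMSO replicate 2 or 4 or Huh7 SAHA replicate 3 (0.05 to 0.0576). For KDM1A and GPS2 the differences of -0.15 (95% interval -0.36 to 0.07) and -0.21 (-0.53 to 0.11) were not called.

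For HDAC2 siRNA 2 of 9 subunits differed between the lines, where 37.2% of all genes did. KDM1A rose in Huh7 and not in HepG2 (difference -0.85, SE 0.10, limma adjusted p = 1.01e-07). MTA2 fell further in HepG2 (difference -0.47, SE 0.18, adjusted p = 0.0408), a call lost in 5 of 10 alternative settings (adjusted p from 0.0257 to 0.111 over the 10). It was also lost without HepG2 HDAC2 siRNA replicate 2 or 4 or HepG2 scrambled replicate 1 or 2 (0.0534 to 0.11). The same held without Huh7 HDAC2 siRNA replicate 1 or 3 or Huh7 scrambled replicate 2, 3 or 4 (0.0502 to 0.103). The difference of MTA3 was 0.08 (95% interval -0.22 to 0.38). That of GPS2 was -0.37 (-0.69 to -0.05, adjusted p = 0.0621), which passed in 2 of 10 settings and with any of 4 arrays left out (0.0216 to 0.0452). RBBP4, read by a dim probe, gave -0.62 (-1.14 to -0.10, adjusted p = 0.0539). It passed under median scaling (-0.77, adjusted p = 0.0207) and with any of 4 arrays left out (0.0164 to 0.0318).

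**Figure D3:**
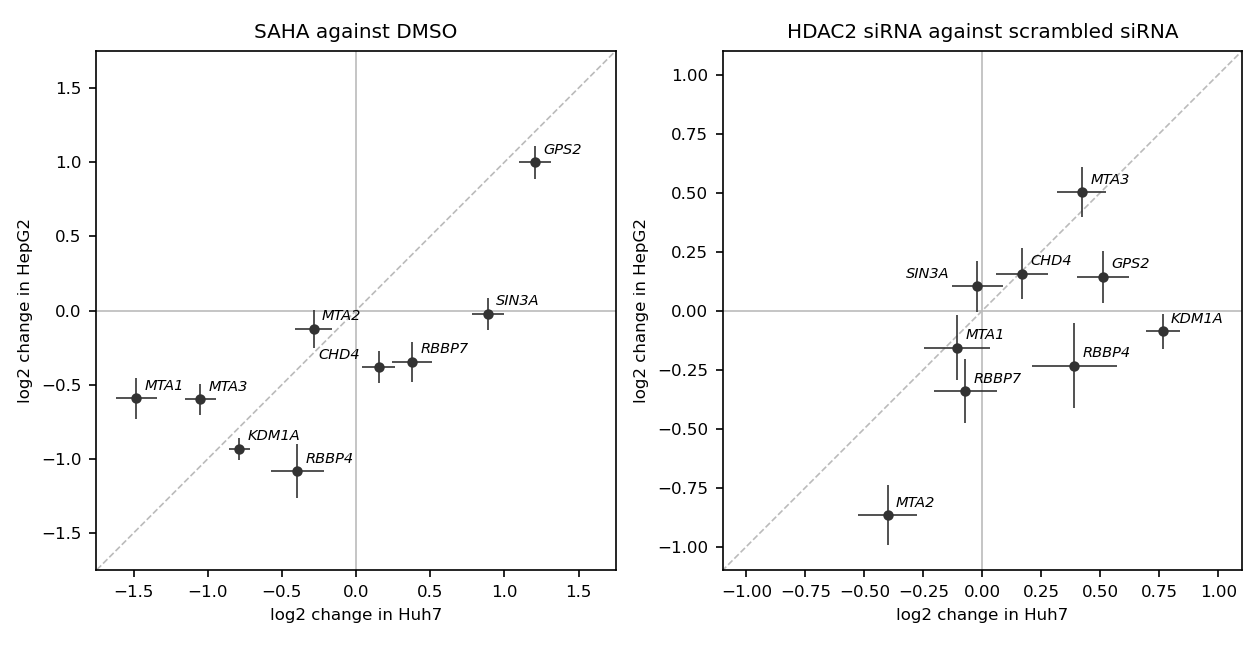
Change in log2 signal of each subunit in Huh7 (horizontal) against HepG2 (vertical), for SAHA against DMSO on the left and HDAC2 siRNA against scrambled siRNA on the right, with standard errors as bars and equal changes on the dashed line. With SAHA, SIN3A, RBBP7 and CHD4 lie below the dashed line and MTA1 above it, and with HDAC2 siRNA KDM1A and MTA2 lie below it.

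SAHA and HDAC2 siRNA were set against each other within a line by the SAHA effect minus the siRNA effect. In Huh7 7 of 9 subunits differed (54.8% of all genes). KDM1A (-1.55, limma adjusted p = 6.47e-14), MTA3 (-1.47, adjusted p = 6.4e-10), MTA1 (-1.37, adjusted p = 5.3e-07) and RBBP4 (-0.78, adjusted p = 0.00962) had the lower effect with SAHA. For SIN3A (0.91, adjusted p = 7.57e-06), GPS2 (0.69, adjusted p = 0.000335) and RBBP7 (0.45, adjusted p = 0.0453) the SAHA effect was the higher. Under median scaling the calls of GPS2 and RBBP7 were lost (adjusted p = 0.0932 and 0.484) and SIN3A was 0.55, and 41.6% of all genes called were higher in place of 53.0%. The RBBP7 call was lost in 4 of 11 settings and with any of 11 of the 16 arrays left out (adjusted p = 0.0554 to 0.0931). Without background correction RBBP4 was -0.31 and MTA3 -0.96, both still called.

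In HepG2 6 of 9 differed (48.7% of all genes). MTA3 (-1.10, limma adjusted p = 2.37e-07), RBBP4 (-0.85, adjusted p = 0.00629), KDM1A (-0.84, adjusted p = 4.29e-08) and CHD4 (-0.54, adjusted p = 0.00475) had the lower effect with SAHA. For GPS2 (0.85, adjusted p = 3e-05) and MTA2 (0.74, adjusted p = 0.000863) the SAHA effect was the higher, calls lost under median scaling (adjusted p = 0.0969 and 0.213). MTA2 itself changed by -0.12 with SAHA, not called, and by -0.87 with HDAC2 siRNA. MTA1 at -0.44 was not called (adjusted p = 0.0674), but it passed in 4 of 11 settings, among them median scaling (-0.88, adjusted p = 0.00143), and without HepG2 DMSO replicate 1, SAHA replicate 4, HDAC2 siRNA replicate 2 or scrambled replicate 4 (0.0376 to 0.0477). SIN3A also passed under median scaling (-0.57, adjusted p = 0.0191), where KDM1A was -1.32 and CHD4 -1.02. RBBP4 was -0.29 without background correction and -1.33 in the authors' normalized table. That scaling gave 31.6% of all called genes as higher in place of 49.7%, with the median of all genes at -0.21.

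The lines differed in these transcripts in the control groups. With DMSO 8 of 9 subunits differed between HepG2 and Huh7 (60% of all genes), with RBBP7 the one not called (0.04, 95% interval -0.24 to 0.31). MTA3 was 4.00-fold higher in HepG2 (10.23 ± 0.07 against 8.23 ± 0.14, SD, n = 4, limma adjusted p = 6.55e-17), MTA1 was 2.15-fold higher (adjusted p = 3.54e-08) and KDM1A 1.84-fold higher (adjusted p = 4.96e-12). GPS2 and MTA2 were lower in HepG2 by -0.67 (adjusted p = 3.83e-06) and -0.52 (adjusted p = 0.000638). CHD4 was called at -0.27 (adjusted p = 0.0368). Without replicate 1, 3 or 4 of either DMSO group that call was lost (0.0628 to 0.0973). RBBP4 was called at 0.46 (adjusted p = 0.0293), but not without background correction (0.18, adjusted p = 0.0569). Its call was also lost without HepG2 DMSO replicate 1 or 4 or Huh7 DMSO replicate 2, 3 or 4 (0.0526 to 0.103). With scrambled siRNA 7 of 9 differed (66.3% of all genes). There MTA3 was 5.10-fold higher in HepG2 (adjusted p = 8.14e-19) and RBBP7 was lower by -1.17 (adjusted p = 4.67e-09). MTA1 at 0.31 had an adjusted p of 0.0502. It passed in 5 of 9 alternative settings (0.0223 to 0.0495) and without HepG2 scrambled replicate 1 (0.0372). SIN3A was called at 0.27 (adjusted p = 0.0309). That call was lost with array quality weights, median scaling or only the arrays compared (0.0544 to 0.0964). Without HepG2 scrambled replicate 1 or 3 or Huh7 scrambled replicate 1 or 2 it was lost too (0.0557 to 0.127).

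The 2 kinds of control were not at the same level. Scrambled siRNA against DMSO called 7 of 9 subunits in Huh7 (44% of all genes) and 7 of 9 in HepG2 (45.1%). In each line 6 of them were lower, where 52.1% of all genes called were higher in Huh7 and 51.1% in HepG2. Subset and control agent cannot be told apart. Without HepG2 DMSO replicate 1 or HepG2 scrambled siRNA replicate 1 the HepG2 count was 4. In Huh7 KDM1A differed by -0.90 (limma adjusted p = 1.52e-11), MTA3 by -0.63 (adjusted p = 1.01e-05) and RBBP7 by 0.87 (adjusted p = 3.39e-06). KDM1A with HDAC2 siRNA in Huh7 (10.38 ± 0.09, SD, n = 4) thus stood near its DMSO level (10.51 ± 0.02) and above its scrambled level (9.62 ± 0.07). MTA3 with HDAC2 siRNA in Huh7 (8.02 ± 0.12) likewise lay between its scrambled level (7.60 ± 0.09) and its DMSO level (8.23 ± 0.14). For GPS2 scrambled siRNA against DMSO gave -0.36 in Huh7 (adjusted p = 0.00754). Its HDAC2 siRNA level there (9.87 ± 0.05) lay above its DMSO level (9.73 ± 0.11) and its scrambled level (9.36 ± 0.14). The siRNA comparison and this one share the scrambled arrays. In HepG2 MTA1 differed by -0.84 (adjusted p = 8.94e-06), SIN3A by -0.55 (adjusted p = 0.00011) and KDM1A by -0.42 (adjusted p = 1.93e-05). Under median scaling 39.0% of all genes called were higher in Huh7 in place of 52.1%, and 40.7% in HepG2 in place of 51.1%.

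The remaining subunits of the same complexes were followed in a list of 39 partners, of which 35 had a probe and 33 were tested. With SAHA 19 were called in Huh7, 11 higher and 8 lower (median 0.10 against 0.01 over all genes), where 60.7% of all genes were called. In HepG2 18 were called, 5 higher and 13 lower (-0.11 against -0.01), where 54.5% of all genes were. These totals lay at the rate of all genes. Under median scaling the Huh7 calls were 7 higher and 14 lower, where 23.2% of all genes rose and 36.1% fell. Those of HepG2 were 4 higher and 19 lower, where 18% of all genes rose and 37.7% fell. HDAC2 siRNA called 22 in Huh7, 18 higher and 4 lower (0.44 against -0.01), beside 45.3% of all genes, and 18 in HepG2, 8 higher and 10 lower (-0.12 against 0.01), beside 36.6%. Among Sin3 partners SAHA raised 8 and lowered 1 of 14 in Huh7, where 31.6% of all genes rose and 29.1% fell. Under median scaling it raised 5 and lowered 2 (23.2% and 36.1% of all genes). In HepG2 it raised none and lowered 7 of the 14, where 26.9% of all genes rose and 27.6% fell. Under median scaling it lowered 9 (37.7% of all genes). Beside the same shares of all genes, SAHA lowered 3 and raised none of 5 NCoR and SMRT partners in Huh7. In HepG2 it raised 3 and lowered none of them, or 2 and 1 under median scaling. Of 9 CoREST partners it raised 2 and lowered 3 in each line, and under median scaling lowered 6. Of 5 NuRD partners it raised 1 and lowered 1 in Huh7, and raised none and lowered 3 in HepG2. HDAC2 siRNA raised 7 and lowered 2 of the 14 Sin3 partners in Huh7, and raised 3 and lowered 5 in HepG2. Of 5 NuRD partners, and likewise of 5 NCoR and SMRT partners, it raised 2 and lowered 1 in Huh7. In HepG2 it raised 2 and lowered none for NuRD, and raised 1 and lowered 2 for NCoR and SMRT. Of 9 CoREST partners HDAC2 siRNA raised 7 in Huh7 and lowered none (22.9% and 22.4% of all genes), and raised 2 and lowered 3 in HepG2 (18.8% and 17.9%). In Huh7 7 of the same list of 9 were lower with scrambled siRNA than with DMSO (median -0.76, against 0.03 over all genes). There 44% of all genes were called, and 52.1% of those calls were higher. Both comparisons share the scrambled arrays.

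Of the other catalytic subunits, HDAC3 of NCoR rose with SAHA by 1.41 in Huh7 (limma adjusted p = 3.69e-13) and by 0.62 in HepG2 (adjusted p = 6.61e-06), the latter not called under median scaling (0.25, adjusted p = 0.107). HDAC2 siRNA raised HDAC3 by 0.58 in Huh7 (adjusted p = 2.21e-05) and gave -0.10 in HepG2 (adjusted p = 0.515). HDAC1, which shares NuRD, CoREST and Sin3 with HDAC2, rose by 0.78 with HDAC2 siRNA in HepG2 (adjusted p = 1.68e-08) and fell by 0.39 in Huh7 (adjusted p = 0.000313). In HepG2 its level with HDAC2 siRNA (12.46) stood near that with DMSO (12.47) and above that with scrambled siRNA (11.68). HDAC1 differed by -0.79 there with scrambled siRNA against DMSO (adjusted p = 4.83e-09), and both comparisons used the scrambled arrays. With SAHA it fell by 0.32 in HepG2 (adjusted p = 0.00212, and by 0.56 under median scaling) and rose by 0.39 in Huh7 (adjusted p = 0.000179), a rise not called under median scaling (0.14, adjusted p = 0.283).

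By adjusted p the first partners with SAHA included HMG20B, a CoREST subunit, which rose by 1.48 in Huh7 and 1.27 in HepG2 (limma adjusted p = 2.11e-13 and 1.06e-11). MBD3, the methyl-CpG-binding-domain subunit of NuRD, fell by 1.24 and 1.85 (adjusted p = 1.83e-06 and 1.43e-09). GSE1 fell by 1.29 in Huh7 (adjusted p = 8.42e-14), where ARID4A of Sin3 rose by 1.42, SAP18 by 1.07 and RCOR3 by 0.95. In HepG2 PHF21A, a histone reader of CoREST, rose by 1.24, CORO2A by 0.97 and TBL1X of NCoR by 0.75, while SAP30 of Sin3 fell by 1.49. With HDAC2 siRNA in Huh7 ZNF217 rose by 1.26, ARID4B by 1.12, CORO2A by 0.84 and SAP130 by 0.68, and TBL1X and GATAD2A fell by 0.88 and 0.81. In HepG2 MBD2 rose by 1.47 and HMG20B by 0.47, and SAP30, ING1 and ING2 fell by 1.21, 1.07 and 0.51. CORO2A fell by 0.51 there by its brightest probe, but changed by -0.04 in the mean of its probes (adjusted p = 0.843). Without background correction several of these changes were smaller and still called: ARID4A at 0.80, MBD3 at -0.66 in Huh7 and -0.98 in HepG2, ZNF217 at 0.83, MBD2 at 0.63 and ING1 at -0.57. Median scaling likewise gave RCOR3 0.60 in Huh7, and CORO2A 0.63 and TBL1X 0.39 in HepG2.

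**Figure D4:**
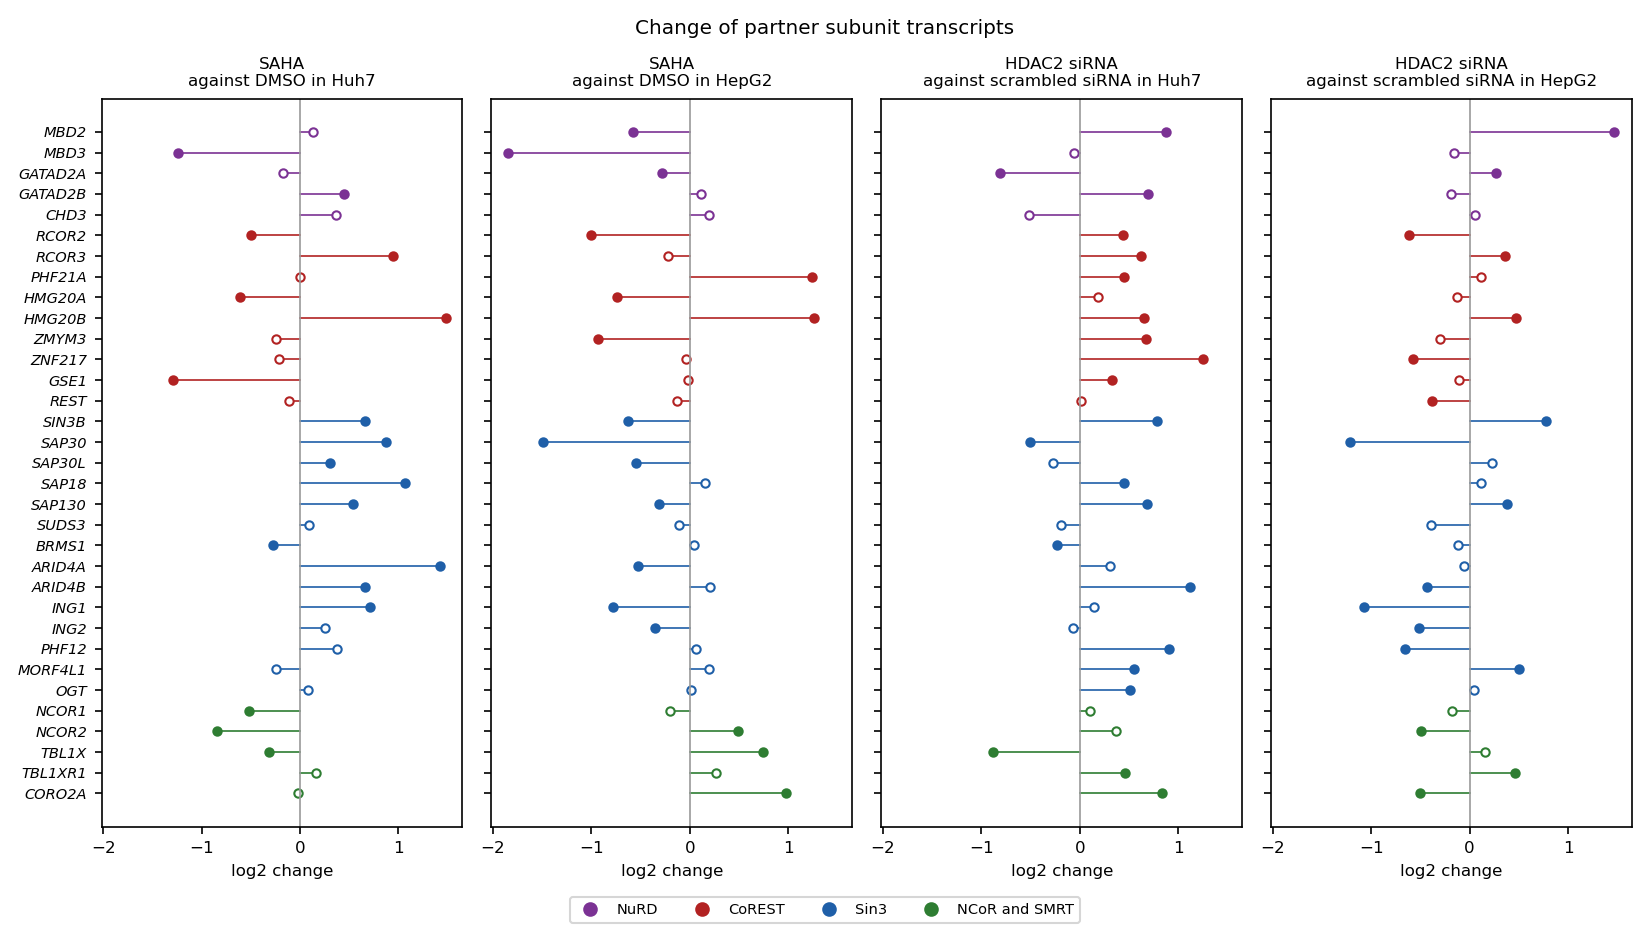
Change in log2 signal of 33 partner subunits in the 4 treatment comparisons, coloured by complex, with filled points for an adjusted p under 0.05. Blue points of Sin3 lie mostly right of 0 with SAHA in Huh7 and mostly left of or near 0 in HepG2, and with HDAC2 siRNA in Huh7 7 of the 9 red points of CoREST are filled and right of 0.

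The genes whose pattern over the 8 group means was most like that of a subunit were found by the root mean square difference of the means, each centred on its own average. For SIN3A they were RSBN1 (0.09) and MIB2 (0.11), for GPS2 CA11 (0.11) and PLEKHH2 (0.14), and for RBBP4 BCL7C (0.11) and RNF207 (0.15). MTA1 was closest to USP3 (0.16) and ZMYND8 (0.17), RBBP7 to PELP1 (0.15) and CALD1 (0.15), and KDM1A to MAP4K3 (0.18) and ZMYM3 (0.19). The nearest to MTA2 were SPTBN1 (0.19) and FAM168B (0.20), and the nearest to MTA3 were DCTD (0.20) and CHN2 (0.29). CHD4 had group means within 0.80 and was not matched. These are descriptions over 8 groups, with no test.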

How the data were processed

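Signals of 24526 probes on 32 one-colour Illumina bead arrays came in 2 tables. The authors deposited a table of raw probe intensities with a detection p-value per probe and array, and a table of normalized intensities (lowest value -32.7, with 23.0% at or below 0). GenomeStudio 2011.1 is named in the submitters' processing notes, and per the labels' protocols biotin-labelled cRNA was hybridised. How the second table was normalized is not stated in the labels.

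From the raw table, background was corrected by normexp estimated from the detection p-values (offset 16), followed by quantile normalization and log2 in limma 3.58.1 (R 4.3.3). Probes with a detection p under 0.05 on at least 4 arrays were kept (16121). A gene was read by its kept probe of highest mean, which left 12973 genes. Older symbols were updated through RefSeq for 3265 probes. One linear model held 8 group means over 32 arrays (24 residual degrees of freedom), tested two-sided by eBayes and adjusted by Benjamini-Hochberg over every gene. The code was tested on simulated data. Array number limits the precision.

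Members, partner list, markers and tests were chosen with earlier results of these data known. All 10 members, HDAC1, HDAC2 and HDAC3 are named, with up to 6 partners of smallest adjusted p per treatment comparison and the 2 genes of most similar pattern where the group means of a member spanned at least 1 log2 unit. Alternatives changed the filter, background, scaling, probe choice, table, samples, weights and block.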

Additional observations from a re-analysis of the deposited data

Results flagged for a closer look

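In 80 groups of 4 arrays tested for 1 array far from the other 3, where chance marks about 1 in 20, RBBP7 on Huh7 HDAC2 siRNA replicate 2 stood out at 10.78. The effect of SAHA in HepG2 minus that in Huh7 passed limma's test for MTA1 (0.89), MTA3 (0.45), CHD4 (-0.53), RBBP4 (-0.69), RBBP7 (-0.72), SIN3A (-0.91) and HDAC2 (-0.61). The effect of HDAC2 siRNA in HepG2 minus that in Huh7 passed for MTA2 (-0.47) and KDM1A (-0.85).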

How the results depend on the processing

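Over the 9 members in the treatment comparisons, 373 of 392 values under 11 alternative settings kept their side of the threshold. Of the others, 7 lost and 11 gained a call, and 1 reversed. A change of sign was counted only where the value was called before or after the change of setting. With 1 array left out, 269 of 288 kept their side of the threshold, 12 lost a call and 7 gained one. The reversed value was RBBP7 with SAHA in Huh7, -0.012 under median scaling. That scaling gave HDAC2 with SAHA 0.13 in Huh7 (limma adjusted p = 0.461) and -0.48 in HepG2 (adjusted p = 0.00387). The members whose siRNA effect differed between the lines numbered 1 in place of 2 with no detection filter, with only the arrays compared, and with the replicate block, and 1 to 3 with an array left out. They numbered 1 without replicate 4 of HepG2 HDAC2 siRNA, replicate 1 of HepG2 scrambled siRNA, replicate 3 of Huh7 HDAC2 siRNA, or replicate 2 or 4 of Huh7 scrambled siRNA. Scrambled siRNA against DMSO in HepG2 called 4 to 6 members with an array left out, in place of 7. The cause was not tested. Among the partners and similar genes, the pattern of CA11 moved from GPS2 to 0.24 in the authors' table and 0.31 without background correction, and that of PLEKHH2 to 0.31 and of MAP4K3 from KDM1A to 0.26 without it. BCL7C moved from RBBP4 to between 0.19 and 0.25 in 3 settings, and CALD1 from RBBP7 to 0.29 without background correction. With only the arrays compared, all genes called with HDAC2 siRNA in HepG2 numbered 2971 in place of 4749. With probes detected on all arrays, where 7255 genes were tested, the SAHA effect differed between lines for 4396 in place of 6772 genes, and the lines with scrambled siRNA for 5584 in place of 8595. Replicate numbers did not pair the arrays: over 8 comparisons of groups same-number deviations correlated at -0.14 to 0.26, and 8 of 32 had their own number as best partner. The replicate block, fitted only within line and subset, lost RBBP7 with siRNA in HepG2 (-0.34, adjusted p = 0.0549), RBBP7 in SAHA minus siRNA in Huh7 (0.45, adjusted p = 0.0515) and MTA2 between lines (-0.47, adjusted p = 0.0503), and gained MTA1 in SAHA minus siRNA in HepG2 (-0.44, adjusted p = 0.0232). A slide block was not run, because the columns name no slide. RCOR1 and RBBP4 were limited by signal near background.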
